A study of Mus musculus with 4 samples.

Results

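The 10 genes of mitochondrial fusion, fission and mitophagy described here were chosen by name: Mfn1, Mfn2, Opa1, Dnm1l, Fis1, Mff, Pink1, Bnip3, Bnip3l and Fundc1. All 10 were present among the 32285 genes of the count matrices. The cells were CD31+ cells of the aorta-gonad-mesonephros region (AGM), the embryonic site at which haematopoietic stem cells emerge, taken from C57BL/6J mouse embryos at stage E11.5. They had been stained with TMRM, a dye that accumulates more in mitochondria of higher membrane potential, and sorted into a dim gate, MMPlow, and a bright gate, MMPhigh. Each gate was represented by 2 droplet libraries (MMPlow 1 and 2, MMPhigh 1 and 2), and the study asked which transcriptional differences accompany mitochondrial activity. The labels give no genetic change and no treatment, and they do not say how many embryos were pooled or whether the libraries of a gate came from separate sorts, so every p-value below measures only the spread between these libraries.

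Mitochondria continually fuse and divide. The dynamin-related GTPases Mfn1 and Mfn2 join outer membranes and Opa1 joins inner membranes and shapes cristae. Division is carried out by the cytosolic GTPase Dnm1l (Drp1), which Mff and Fis1 on the outer membrane help to recruit. Damaged or surplus mitochondria are cleared by mitophagy, either through the kinase Pink1, which accumulates on depolarised mitochondria, or through the outer-membrane receptors Bnip3, Bnip3l (Nix) and Fundc1, which bind LC3-family proteins directly. Bnip3 is a known target of hypoxia-inducible factor, and Bnip3l is known for the removal of mitochondria from maturing red cells.

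In GENCODE vM21 (GRCm38) the fusion genes lie at chr3:32529465-32579239 (Mfn1), chr4:147873599-147904704 (Mfn2) and chr16:29579334-29654884 (Opa1). The fission genes lie at chr16:16312230-16358959 (Dnm1l), chr5:136953275-136966234 (Fis1) and chr1:82724890-82752394 (Mff). The mitophagy genes lie at chr4:138313409-138326307 (Pink1), chr7:138890836-138909519 (Bnip3), chr14:66985239-67008877 (Bnip3l) and chrX:17556564-17572325 (Fundc1). Dnm1l and Bnip3 each overlap 1 other gene of the count matrices on the opposite strand (Gm49521 and Gm45507), and Mff overlaps C430014B12Rik on the opposite strand and Gm28941 on its own, so their values are uncertain by the reads in those overlaps. Whether the counting used strand is not given in the sources used here.

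Promoter windows from RefSeq (GRCm38.p6) were available for 9 of the 10 genes, 14 windows in all. They were searched for ACGTG on either strand, a form of the core of the hypoxia response element that also lies inside the E-box CACGTG. Of all 32851 windows of the 250 bases before a start site, 16.6% held it. Among the windows of these genes, 1 of 3 windows of Mfn2 and the window of Bnip3 held it, and none of those of Mfn1, Opa1, Dnm1l, Fis1, Mff, Pink1 or Fundc1 did. The other form of the core, GCGTG, was not searched for and occurs in windows of Pink1, Dnm1l and Bnip3, among others. The Bnip3 window is shown because Bnip3 in erythroid-like cells gave the largest of the 5 differences between the gates called for a member in a named cell class at the main setting. It covers the 250 bases before the start (chr7:138909507-138909756, minus strand, 5′ to 3′), and the capitals mark the matches on both strands, which overlap in 1 CACGTG that begins 108 bases before the start.
Bnip3: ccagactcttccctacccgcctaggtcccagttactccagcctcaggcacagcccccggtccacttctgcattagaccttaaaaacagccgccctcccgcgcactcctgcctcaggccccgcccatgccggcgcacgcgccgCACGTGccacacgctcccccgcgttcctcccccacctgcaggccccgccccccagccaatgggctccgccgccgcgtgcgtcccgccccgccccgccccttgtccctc
A match describes these letters and does not show that a factor binds there.

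The libraries differed in depth and in the cells they held. After filtering, 15813, 18606, 4403 and 3403 cells were retained in MMPlow 1, MMPlow 2, MMPhigh 1 and MMPhigh 2, with medians of 3087, 3655, 3685 and 23605 unique molecular identifiers (UMIs) per cell. Before doublets were removed, 27.9%, 82.6%, 31.6% and 81.3% of the barcodes had passed the filter, in the same order. Replicate 1 of both gates thus kept a smaller share of its barcodes than replicate 2. The 6 pairs of libraries shared between 14 and 369 barcode sequences, at most 2.31% of the smaller library. Clustering gave 31 clusters, of which 21 were named in 12 classes by marker genes. The 10 unnamed clusters held 21.4%, 23.2%, 59.3% and 20.6% of the cells of the 4 libraries in the same order, so MMPhigh 1 was mostly unnamed cells. Endothelial-like cells made up 43.6% and 42.4% of MMPlow 1 and 2 but 0.25% and 0.353% of MMPhigh 1 and 2, although all cells were labelled CD31+, and Pecam1, which encodes CD31, stood at 275, 262, 24.9 and 22.1 CPM, the UMIs of a gene scaled to the library or class total. Neuron-like cells made up 2.74% and 2.56% of MMPlow 1 and 2 and 15% and 28.8% of MMPhigh 1 and 2. These shares depend on the naming rule. Unnamed cluster 16, whose closest marker list was neuron, held 65 and 78 cells of MMPlow 1 and 2 and 712 and 186 cells of MMPhigh 1 and 2. Unnamed clusters 5 and 21, closest to the endothelial list, held 405 and 499, and 303 and 376, cells of MMPlow 1 and 2. Each held at most 3 cells of either MMPhigh library. Clusters 19 and 29 were also unnamed and closest to the endothelial list, with 137 and 74, and 20 and 625, cells of MMPlow 1 and 2. Both held 0 cells of MMPhigh 1 and 2. Cluster 29, almost all from MMPlow 2, was led by Ulk4, Myl7 and S100a9. Within named classes the endothelial markers were also higher in MMPlow: their summed level in macrophage-like cells was 953 and 820 CPM in MMPlow against 131 and 125 CPM in MMPhigh, beside 6243 and 6531 CPM in the endothelial-like cells of MMPlow 1 and 2. In all 8 classes compared between the gates this sum was higher in MMPlow, with none of the 15 markers at 0, and its part in the results below was not tested. In germ cell-like cells it was 1904 and 765 CPM in MMPlow against 216 and 209 CPM in MMPhigh. Germ cell markers in these cells summed to 1814 and 2574 CPM in MMPlow against 5601 and 5025 CPM in MMPhigh. Some other lists moved the same way as the endothelial markers. Megakaryocyte markers in mesenchymal-like cells summed to 445 and 490 CPM in MMPlow against 30.7 and 27.4 CPM in MMPhigh. Granulocyte or mast markers in erythroid-like cells summed to 119 and 102 CPM against 9.79 and 5.06 CPM. Neuron markers went the other way in mesenchymal-like cells (194 and 204 CPM against 301 and 273 CPM). Fewer cells of a type and less RNA per cell cannot be told apart in the sums over all cells.

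Levels by class are given as CPM of the summed UMIs, averaged over the libraries that held at least 20 cells of the class (2 to 4 libraries), and are descriptions with no test. Where n is 3 or 4 the SD spans both gates, so it holds the gate difference as well as the spread within a gate. The means of endothelial-like and granulocyte or mast-like cells (n = 2) come from MMPlow alone, so their place in the orders mixes gate with class. The members were left out of the genes used for clustering. Levels are compared between classes for 1 gene at a time, never between genes.

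Across the members, the ratio of the highest to the lowest class mean ran from 1.39 for Fis1 to 3.78 for Bnip3, and in the order of 12 classes at least 10 of the 11 neighbouring pairs had overlapping library values for every member. Megakaryocyte-like cells, the platelet lineage, stood at the top for the fusion gene Opa1, with 109 CPM ± 9.64 (SD, n = 4 libraries), and this was the only gap at the top of any order: their lowest library, 96.0 CPM, lay above the highest library, 95.2 CPM, of the erythroid-like cells that came next. Opa1 was lowest in muscle progenitor-like cells at 66.8 CPM ± 3.31 (SD, n = 4). With thinned cells megakaryocyte-like cells were again highest for Opa1, at 116 CPM, erythroid-like cells stood at 73.1 CPM and epithelial or mesonephric-like cells were lowest, at 66.3 CPM. Mfn1, by contrast, was lowest in megakaryocyte-like cells, at 16.8 CPM ± 0.753 (SD, n = 4), and reached 28.2 CPM ± 0.511 in mesenchymal-like and 28.2 CPM ± 1.49 in erythroid-like cells (SD, n = 4 each). With cells thinned to 2000 UMIs, megakaryocyte-like cells were not lowest for Mfn1 (22.2 CPM), and haematopoietic progenitor-like cells were, at 17.3 CPM. The highest Mfn1 mean, 32.3 CPM ± 9.57 in epithelial or mesonephric-like cells, rested on 66 UMIs in 3 libraries. For Mfn2 the highest mean, 40.3 CPM ± 17.1 in granulocyte or mast-like cells, rested on 42 UMIs in 2 libraries, and megakaryocyte-like cells followed with 26.4 CPM ± 3.73 (SD, n = 4). At the coarser clustering the granulocyte or mast-like mean was 23.1 CPM and megakaryocyte-like cells were highest.

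Among the fission genes, Mff had the clearest order. Mff, the main receptor for Dnm1l, stood at 148 CPM ± 23.8 in megakaryocyte-like and 130 CPM ± 5.44 in erythroid-like cells, above all libraries of every other class except that germ cell-like cells of MMPlow 2 reached 128 CPM. It was lowest in macrophage-like cells, 58.6 CPM ± 4.03 (SD, n = 4), and epithelial or mesonephric-like cells, 57.5 CPM ± 8.22 (SD, n = 3). Megakaryocyte-like and erythroid-like cells kept the first and the second place for Mff when each cell was thinned to 2000 UMIs and in MMPlow alone. Dnm1l was lowest in erythroid-like cells, at 74.8 CPM ± 7.45 (SD, n = 4), and its neighbouring classes overlapped throughout. Fis1 varied least, from 117 CPM ± 16.3 in megakaryocyte-like cells to 162 CPM ± 28.3 in muscle progenitor-like cells (SD, n = 4 each), and in MMPlow alone erythroid-like cells were highest, at 159 CPM.

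Bnip3, a mitophagy receptor, was highest in erythroid-like cells, at 67.5 CPM ± 23 (SD, n = 4), followed by megakaryocyte-like cells at 39.3 CPM ± 8.79, and was lowest in endothelial-like cells at 17.8 CPM ± 1.86 (SD, n = 2). The erythroid-like mean joins gate means of 86.0 CPM in MMPlow and 49.0 CPM in MMPhigh. In MMPlow alone erythroid-like cells were also highest and endothelial-like cells lowest. With cells thinned to 2000 UMIs erythroid-like cells were again highest for Bnip3, and haematopoietic progenitor-like cells were lowest, at 16.2 CPM. Bnip3l stood at 178 CPM ± 10.6 in erythroid-like and 170 CPM ± 25.8 in megakaryocyte-like cells (SD, n = 4 each). Its highest mean, 190 CPM ± 51.1, was in epithelial or mesonephric-like cells (n = 3), and that class and the erythroid-like cells overlapped. With thinned cells and in MMPlow alone erythroid-like cells were highest. Bnip3l was lowest in 3 classes, at 84.3 CPM ± 10.7 in macrophage-like, 88.9 CPM ± 3.90 in haematopoietic progenitor-like and 98.6 CPM ± 8.88 in granulocyte or mast-like cells. In these libraries all 3 lay below the endothelial-like cells, whose lowest library was 123 CPM. Fundc1, by contrast, was highest in macrophage-like cells at 30.7 CPM ± 6.40 (SD, n = 4), but with thinned cells haematopoietic progenitor-like (34.8 CPM) and neural crest derivative-like cells (33.1 CPM) stood above macrophage-like cells (31.7 CPM), and in MMPlow alone epithelial or mesonephric-like cells (27.7 CPM) stood above them (25.6 CPM). Over the 32 sums of class and library Bnip3l and Fundc1 had the most negative correlation of any pair of members, r = -0.48, sums of 1 library not being independent. The kinase Pink1 was lowest in erythroid-like cells at 6.00 CPM ± 1.77 and stood at 18.1 CPM ± 2.57 in neuron-like cells (SD, n = 4 each). No UMI of Pink1 was seen in germ cell-like cells of MMPlow 1 and 2, which allows up to 27.1 and 22.5 CPM (3 counts of the total, counting error only), above the 12.6 and 13.0 CPM of MMPhigh 1 and 2, so a difference was not detectable at this depth.

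**Figure D1:**
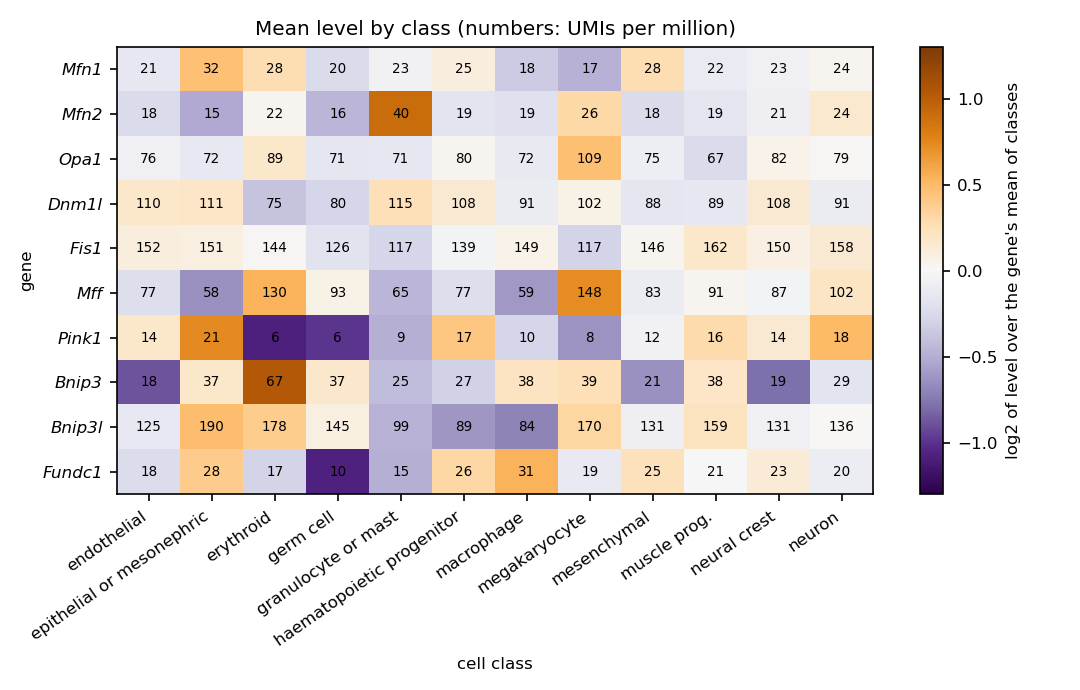
Mean level of each member (rows) in the 12 named classes (columns). Numbers are CPM averaged over libraries with at least 20 cells of the class, and colours give the log2 of each level over the gene's own mean of the classes. Mff and Opa1 peak in megakaryocyte-like cells at 148 and 109 CPM, Bnip3 peaks in erythroid-like cells at 67.5 CPM, and Bnip3l is lowest in macrophage-like cells at 84.3 CPM.

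The first comparison of the gates summed all retained cells of each library, so it takes in the different cell make-up described above. Tests are edgeR's quasi-likelihood F-test on these sums, and a gene is called at a Benjamini-Hochberg adjusted p below 0.05 over all genes tested. Of the 10 members, 2 were called, Dnm1l lower and Fundc1 higher in MMPhigh, where 53.9% of all 20418 genes tested were called. Their median log2 difference was 0.05, beside 0.01 over all genes tested.

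Dnm1l, the GTPase that constricts mitochondria, stood at 113 CPM in MMPlow 1 and 102 CPM in MMPlow 2, against 66.2 CPM in MMPhigh 1 and 80.8 CPM in MMPhigh 2. Both MMPhigh libraries lay below both MMPlow libraries. The log2 difference was -0.51 (SE 0.107, edgeR adjusted p = 0.0042), and Dnm1l stayed called under all 17 alternative settings of this comparison, with log2 differences from -0.65 to -0.39. Fundc1, a receptor of hypoxia-induced mitophagy, stood at 19.3 and 20.6 CPM in MMPlow and at 22.5 and 25.3 CPM in MMPhigh, again without overlap. Its fitted log2 difference was 0.30 (SE 0.095, edgeR adjusted p = 0.0285), and the call was lost under 7 of the 17 settings, among them leaving out MMPlow 1, MMPlow 2 or MMPhigh 2 and keeping only cells with 5000 UMIs, where the difference fell to 0.09.

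Neither recruiter of Dnm1l was called. Mff stood at 78.1 and 88.4 CPM in MMPlow and 94.8 and 99.0 CPM in MMPhigh (log2 difference 0.25, SE 0.0945, edgeR adjusted p = 0.0518), and 5 of the 17 settings called it. Fis1 stood at 140 and 142 CPM in MMPlow and 172 and 151 CPM in MMPhigh (log2 difference 0.23, SE 0.102, edgeR adjusted p = 0.0922). Fis1 was called higher in 1 of the 17 settings, without MMPhigh 2 (0.33, edgeR adjusted p = 0.0098), and its difference was 0.12 without MMPhigh 1. With only the cells of at least 5000 UMIs it was -0.12, of the opposite sign. None of the fusion genes was called: Opa1 had a log2 difference of -0.13 (SE 0.0832), Mfn1 of -0.09 (SE 0.0846) and Mfn2 of 0.05 (SE 0.0992). Pink1 stood at 12.9, 13.2, 12.7 and 13.0 CPM, with a log2 difference of 0.01 (SE 0.0984). Bnip3 had a log2 difference of 0.16 (SE 0.105), which was 0.01 without MMPhigh 2 and 0.29 without MMPhigh 1, where it was called higher (edgeR adjusted p = 0.0169). Bnip3l had a log2 difference of 0.06 (SE 0.0889).

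To give each class the same number of cells in every library, sums were also formed from 1491 cells per library. They were drawn from the 8 classes for which each library held 20 cells or more. These were the erythroid-, germ cell-, macrophage-, megakaryocyte-, mesenchymal-, muscle progenitor-, neural crest derivative- and neuron-like cells. The draw did not even out the clusters within a class or the UMIs per cell. Macrophage-like cells were 500 of the 1491, and the gates held mostly different clusters of them, as described below. Again Dnm1l was called lower and Fundc1 higher, 2 of 10 members, beside 19.7% of all genes tested. Dnm1l stood at 107 and 104 CPM in MMPlow and 70.0 and 83.5 CPM in MMPhigh, a log2 difference of -0.41 (SE 0.101, edgeR adjusted p = 0.0211), and both MMPhigh libraries again lay below both MMPlow libraries. That call was lost when MMPlow 1, MMPlow 2 or MMPhigh 1 was left out (log2 differences -0.38, -0.42 and -0.30) and with cells thinned to 2000 UMIs (log2 difference -0.38, edgeR adjusted p = 0.0588). Fundc1 stood at 20.6 and 19.7 CPM in MMPlow and 24.3 and 27.5 CPM in MMPhigh, a log2 difference of 0.41 (SE 0.121, edgeR adjusted p = 0.0413), a call that 5 of 10 settings did not keep. Bnip3 stood at 43.6 and 38.2 CPM in MMPlow and 28.6 and 34.95 CPM in MMPhigh, without overlap and not called (log2 difference -0.31, SE 0.127, edgeR adjusted p = 0.118), a difference of the opposite sign to that in all cells. It was called lower without MMPhigh 2 (-0.46, edgeR adjusted p = 0.0167).

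**Figure D2:**
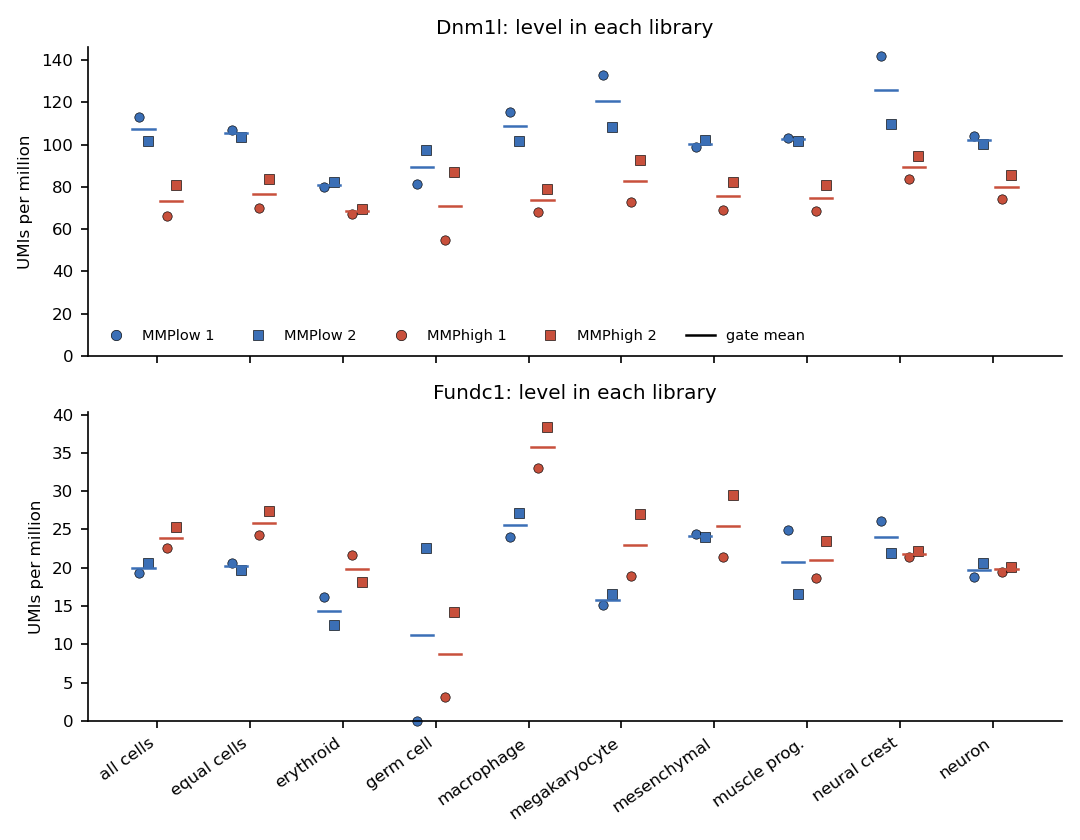
Level of Dnm1l (top) and Fundc1 (bottom) in each library, in CPM, for all cells, for equal cells per class and for the 8 classes tested. Points are libraries (circles replicate 1, squares replicate 2) and lines are gate means. The MMPhigh points of Dnm1l lie below the MMPlow points in every column except the germ cell-like one, whereas those of Fundc1 are apart and higher in all cells, equal cells, erythroid-, macrophage- and megakaryocyte-like cells.

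Within the classes, 5 of 74 tested pairs of member and class were called, 2 higher and 3 lower in MMPhigh, where the share of all genes called ran from 2.18% to 45.0% by class. With library totals in place of TMM scaling, 2 pairs were called higher and 7 lower. Dnm1l was the member with the most even pattern. Its log2 difference was below 0 in all 8 classes, from -0.47 in neural crest derivative-like cells to -0.12 in germ cell-like cells, and in 7 of the 8 both MMPhigh libraries lay below both MMPlow libraries. Of the 5737 genes tested in all 8 classes, 6.64% had a log2 difference below 0 in all 8, and 5.66% lay lower without overlap in at least 7. The classes share the same 4 libraries, so they are not independent repeats of the difference. Dnm1l was called in 2 classes. In macrophage-like cells, where 45.0% of genes tested were called, it stood at 116 and 102 CPM in MMPlow and 68.1 and 79.0 CPM in MMPhigh (log2 difference -0.30, SE 0.100, edgeR adjusted p = 0.0281). In mesenchymal-like cells, where 19.3% were called, it stood at 99.0 and 102 CPM in MMPlow and 69.0 and 82.1 CPM in MMPhigh (log2 difference -0.35, SE 0.110, edgeR adjusted p = 0.0414). In neuron-like cells it stood at 104 and 100 CPM against 74.3 and 85.5 CPM and was not called (log2 difference -0.30, SE 0.118, edgeR adjusted p = 0.0944). In megakaryocyte-like cells it stood at 133 and 108 CPM against 72.9 and 92.7 CPM (log2 difference -0.38, SE 0.167), and in neural crest derivative-like cells at 142 and 110 CPM against 83.8 and 94.8 CPM (log2 difference -0.47, SE 0.220). Whether the Dnm1l difference varied with class was tested directly, and no such variation was detected (edgeR adjusted p = 0.74).

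The mesenchymal call was lost under 8 of 19 settings, including leaving out MMPlow 1, MMPlow 2 or MMPhigh 1. Of the 2 mesenchymal-like clusters with 20 cells in every library, fitted on their own after the class results had been seen, Dnm1l was called lower in cluster 18, led by Col2a1 and Col9a1 (95.2 and 101 CPM against 63.0 and 78.0 CPM, log2 difference -0.45, SE 0.143, edgeR adjusted p = 0.0473, beside 9.88% of genes called), and not in cluster 24 (-0.25, SE 0.140). The macrophage call was lost under 5 of 19 settings, including leaving out MMPlow 1 (log2 difference -0.22) or MMPhigh 1 (-0.19). In germ cell-like cells the difference was above 0 without MMPlow 2 (0.12), without MMPhigh 1 (0.08) and with no gene filter (0.10).

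Log2 differences also varied with gene length in some comparisons. Dnm1l spans 46.7 kb, and genes of 30 to 100 kb had a median log2 difference of -0.13 in all cells and -0.04 in macrophage-like cells, against 0.20 and 0.25 for genes under 10 kb (genes with a mean of at least 10 CPM). Fis1 and Fundc1 span 13.0 and 15.8 kb, and genes of 10 to 30 kb had medians of 0.03 and 0.06. In mesenchymal-like cells, the other class that called Dnm1l, the medians were 0.07 under 10 kb and -0.02 at 30 to 100 kb, and in neuron-like cells they were -0.07 and -0.02, with 0.18 over 100 kb. The medians under 10 kb and at 30 to 100 kb lay further apart in germ cell-like (0.45 and -0.16) and megakaryocyte-like cells (0.28 and -0.07). The same held in unnamed clusters 12 (0.20 and -0.19) and 13 (0.42 and -0.10), fitted below. Genes of 10 to 30 kb had medians of 0.19, 0.12, 0.05 and 0.19 there, in the same order. The part of gene length in these differences was not tested.

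**Figure D3:**
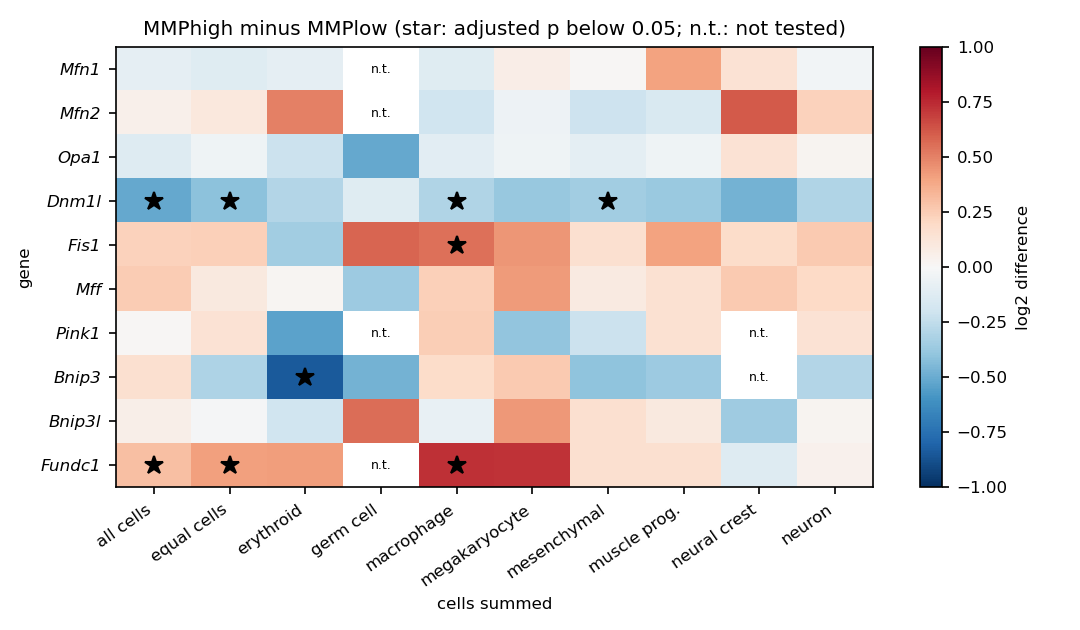
Log2 difference of each member (rows), MMPhigh minus MMPlow, in all cells, equal cells and the 8 classes (columns), from edgeR. Stars mark an adjusted p below 0.05 and n.t. marks pairs not tested because of low counts. Dnm1l is the only member below 0 in all 10 columns, and the darkest called cell is Bnip3 in erythroid-like cells at -0.84.

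Macrophage-like cells, tissue phagocytes that in the embryo come largely from the yolk sac, gave 3 of the 5 class calls, 3 of 10 members, below the 45.0% of all genes tested that were called in this class. Beside Dnm1l, Fis1 was higher in MMPhigh, at 127 and 139 CPM in MMPlow and 167 and 161 CPM in MMPhigh (log2 difference 0.55, SE 0.0914, edgeR adjusted p = 0.00056). Fundc1 was also higher, at 24.0 and 27.1 CPM in MMPlow and 33.1 and 38.4 CPM in MMPhigh (log2 difference 0.73, SE 0.124, edgeR adjusted p = 0.00061). The TMM scaling factors alone moved the log2 differences in this class by 0.25 towards MMPhigh relative to library totals, by 0.15 in germ cell-like and 0.13 in megakaryocyte-like cells, and by at most 0.07 in the other classes and in the sums of all and of equal cells. With library totals in place of TMM, the log2 differences in macrophage-like cells were -0.55 for Dnm1l, 0.30 for Fis1 and 0.49 for Fundc1, all still called, and Mfn2 (-0.45, edgeR adjusted p = 0.034), Opa1 (-0.35, edgeR adjusted p = 0.0062) and Bnip3l (-0.32, edgeR adjusted p = 0.0080) were called lower as well, so that 2 members were higher and 4 lower. Of all 13652 genes tested in this class, 1558 were called higher and 5270 lower with library totals (50% in all), against 3052 and 3086 with TMM. With only cells of at least 5000 UMIs, no call of the 3 was kept, at -0.20, 0.05 and 0.29 in the same order, and Bnip3l was called lower (-0.39, edgeR adjusted p = 0.0069). The sign for Bnip3 in macrophage-like cells depended on the scaling: its mean CPM was lower in MMPhigh and its log2 difference after TMM scaling was 0.18.

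The macrophage-like cells of the 2 gates came mostly from different clusters. Cluster 8, led by Gm2245, Gm20528 and F13a1, held 71.5% and 62.7% of them in MMPlow 1 and 2 but 3.20% and 0.678% in MMPhigh 1 and 2, and its cells had a median of 2774 UMIs and 6.93% mitochondrial UMIs. Cluster 10, led by the complement genes C1qc, C1qa and C1qb, held 12.3% and 17.1% in MMPlow but 73.2% and 85.4% in MMPhigh, with medians of 15396 UMIs and 4.53%. In cluster 8 of MMPlow 1 and 2, Fis1 stood at 96.5 and 101 CPM, Fundc1 at 22.0 and 20.5 CPM and Dnm1l at 134 and 123 CPM. In cluster 10 of the same libraries Fis1 stood at 149 and 182 CPM, Fundc1 at 29.5 and 32.3 CPM and Dnm1l at 103 and 73.9 CPM. The 2 clusters with 20 cells in every library, 7 and 10, were then fitted on their own. None of the 3 calls held in either. The Fis1 differences were 0.12 (SE 0.118) in cluster 7 and 0.01 (SE 0.125) in cluster 10, those of Fundc1 0.14 (SE 0.208) and 0.34 (SE 0.176), and those of Dnm1l -0.22 (SE 0.134) and -0.12 (SE 0.152). The only member called within a macrophage-like cluster was Bnip3l, lower in MMPhigh in cluster 7 (101 and 109 CPM in MMPlow, 74.2 and 73.8 CPM in MMPhigh, log2 difference -0.44, SE 0.130, edgeR adjusted p = 0.0277), where 11.7% of genes tested were called. Cluster 7 was led by Mndal, Ccr2 and Ifi203. It had 7 macrophage markers at a log2 fold of at least 1 but none among its 10 leading genes. In cluster 10, where 14.1% were called, Bnip3l stood at 101 and 102 CPM against 77.1 and 74.5 CPM (log2 difference -0.36, SE 0.127, edgeR adjusted p = 0.0684). These single-cluster fits were added after the class results had been seen.

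**Figure D4:**
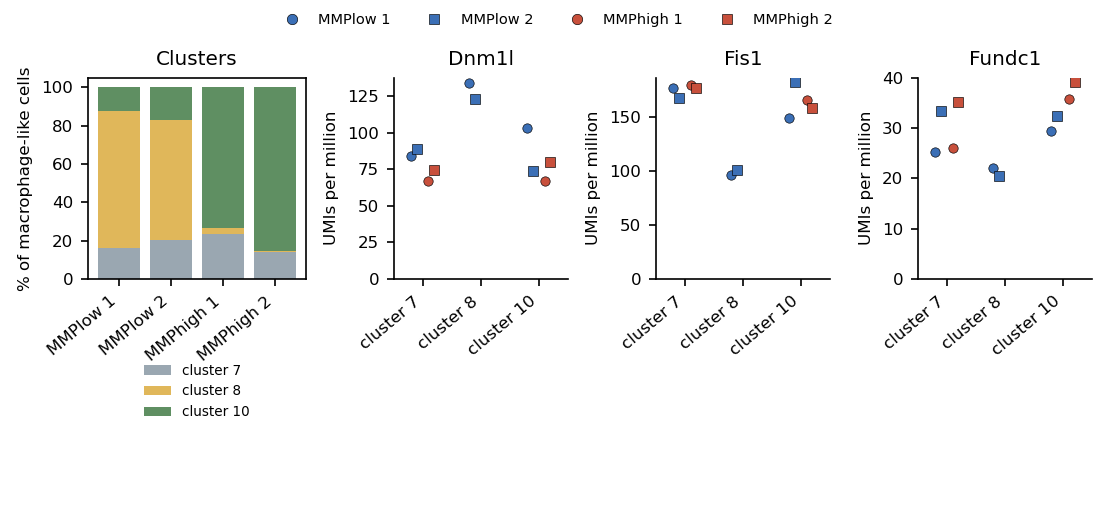
Left, share of each library's macrophage-like cells in clusters 7, 8 and 10. Right, CPM of Dnm1l, Fis1 and Fundc1 in each cluster and library with at least 20 cells (MMPhigh has too few cells in cluster 8). Cluster 8 holds 71.5% and 62.7% of these cells in MMPlow and 3.20% and 0.678% in MMPhigh, and its Fis1 level, 96.5 and 101 CPM, lies below all libraries of the other clusters.

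Bnip3 in erythroid-like cells was the largest called difference of any member in a class at the main setting. It stood at 77.9 CPM in MMPlow 1 and 94.1 CPM in MMPlow 2 and at 42.4 CPM in MMPhigh 1 and 55.5 CPM in MMPhigh 2, so all MMPhigh values lay below all MMPlow values. The log2 difference was -0.84 (SE 0.158, edgeR adjusted p = 0.0015), the only call among the 10 members in a class where 9.89% of genes tested were called. The call was lost under 4 of 19 settings: without MMPlow 2 (-0.72, edgeR adjusted p = 0.12), with cells thinned to 2000 UMIs (-0.76, edgeR adjusted p = 0.53), and at the coarser (-0.24, edgeR adjusted p = 0.65) and finer clustering (-0.93, edgeR adjusted p = 0.065). The erythroid-like cells of the gates differed in other ways. Their summed erythroid markers, mostly globins, stood at 87400 and 59705 CPM in MMPlow and 23550 and 5498 CPM in MMPhigh, and their median depth was 9620 and 12908 UMIs against 44340.5 and 63401.5 UMIs per cell. The part of either in the Bnip3 difference was not tested. Of the 17 tested genes of a list of hypoxia-response genes, 3 were called lower in these cells and none higher: the glucose transporter Slc2a1 (-0.63, SE 0.192), the prolyl hydroxylase Egln3 (-1.82, SE 0.524) and the collagen prolyl hydroxylase P4ha1 (-0.70, SE 0.169). Egln3 and P4ha1 were named after their values had been seen. The 3 called genes were 17.6% of the list, beside 9.89% of all genes, and the list's median was -0.04. Macrophage-like cells called 7 of the list higher and 4 lower (50%, beside 45.0% of all genes). Neuron-like cells called 2 higher and 5 lower (35%, beside 22.4%), and germ cell-like cells 3 higher and 2 lower (33.3%, beside 10.8%). Megakaryocyte-like cells called 3 higher and 1 lower (20%, beside 16.3%), and mesenchymal-like cells 1 higher and 1 lower (9.09%, beside 19.3%). Of the 18 genes of the list tested in muscle progenitor-like cells none was called (beside 2.50%). The same held for the 13 tested in neural crest derivative-like cells (beside 2.18%). In mesenchymal-, muscle progenitor- and neuron-like cells Bnip3 also lay lower in MMPhigh without overlap but was not called, with log2 differences of -0.40 (SE 0.170), -0.36 (SE 0.242) and -0.29 (SE 0.150). Neural crest derivative-like cells had too few counts of Bnip3 to be tested. It stood there at 14.5 and 35.9 CPM in MMPlow and 13.1 and 12.9 CPM in MMPhigh, again without overlap. In megakaryocyte-like cells it overlapped, at 36.3 and 40.8 CPM against 29.4 and 50.4 CPM. Bnip3 was called in the opposite direction in 1 class of an alternative setting. At the finer clustering (resolution 2), where the cells named haematopoietic progenitor-like numbered 41 and 106 in MMPhigh 1 and 2 and could be tested, it stood at 36.3 and 36.2 CPM in MMPlow and 43.5 and 65.9 CPM in MMPhigh (log2 difference 0.98, SE 0.207, edgeR adjusted p = 0.0019). Mff (0.81), Bnip3l (0.86) and Fundc1 (0.64) were called higher there as well, 4 of 10 members, beside 40.3% of all genes tested. The gates held different clusters of this class: cluster 23 at resolution 2 supplied 37 and 81 of its cells in MMPhigh 1 and 2, but 819 of 1400 and 646 of 1345 in MMPlow 1 and 2. That cluster was led by Slc25a21, Muc13, Myb and Ermap, of which Slc25a21, Myb and Ermap also lead the unnamed cluster 13 at the main resolution, and 1 progenitor marker was among its 10 leading genes.

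A fit with terms for class by gate asked whether a member's gate difference depended on class. For 3 of 10 members it did, beside 35.6% of all genes tested: Fis1 (edgeR adjusted p = 0.0011), Bnip3 (0.0014) and Bnip3l (0.012). The other 7 were not called. In erythroid-like cells Fis1 stood at 167 and 152 CPM in MMPlow and 137 and 122 CPM in MMPhigh and was not called (log2 difference -0.35, SE 0.133, edgeR adjusted p = 0.104), a call made only without MMPhigh 1 (-0.44, edgeR adjusted p = 0.041). Its log2 difference was above 0 in the other 7 classes, from 0.16 in mesenchymal-like to 0.58 in germ cell-like cells. Bnip3l ranged from -0.35 (SE 0.207) in neural crest derivative-like cells to 0.43 (SE 0.164) in megakaryocyte-like cells, where it stood at 135 and 169 CPM in MMPlow and 179 and 196 CPM in MMPhigh, and to 0.56 (SE 0.285) in germ cell-like cells. At the main setting no class called Bnip3l on its own. Alternatives called it higher in megakaryocyte-like cells (4 settings), in haematopoietic progenitor-like cells at the finer clustering (0.86, edgeR adjusted p = 0.0014) and in epithelial or mesonephric-like cells with at least 10 cells per library (0.66, edgeR adjusted p = 0.018), and 2 settings called it lower in macrophage-like cells. None of the 3 genes was called in this test with cells thinned to 2000 UMIs, with only cells of 5000 UMIs, or at the coarser clustering, and leaving out MMPlow 1 or MMPlow 2 kept 1 of the 3 each time.

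**Figure D5:**
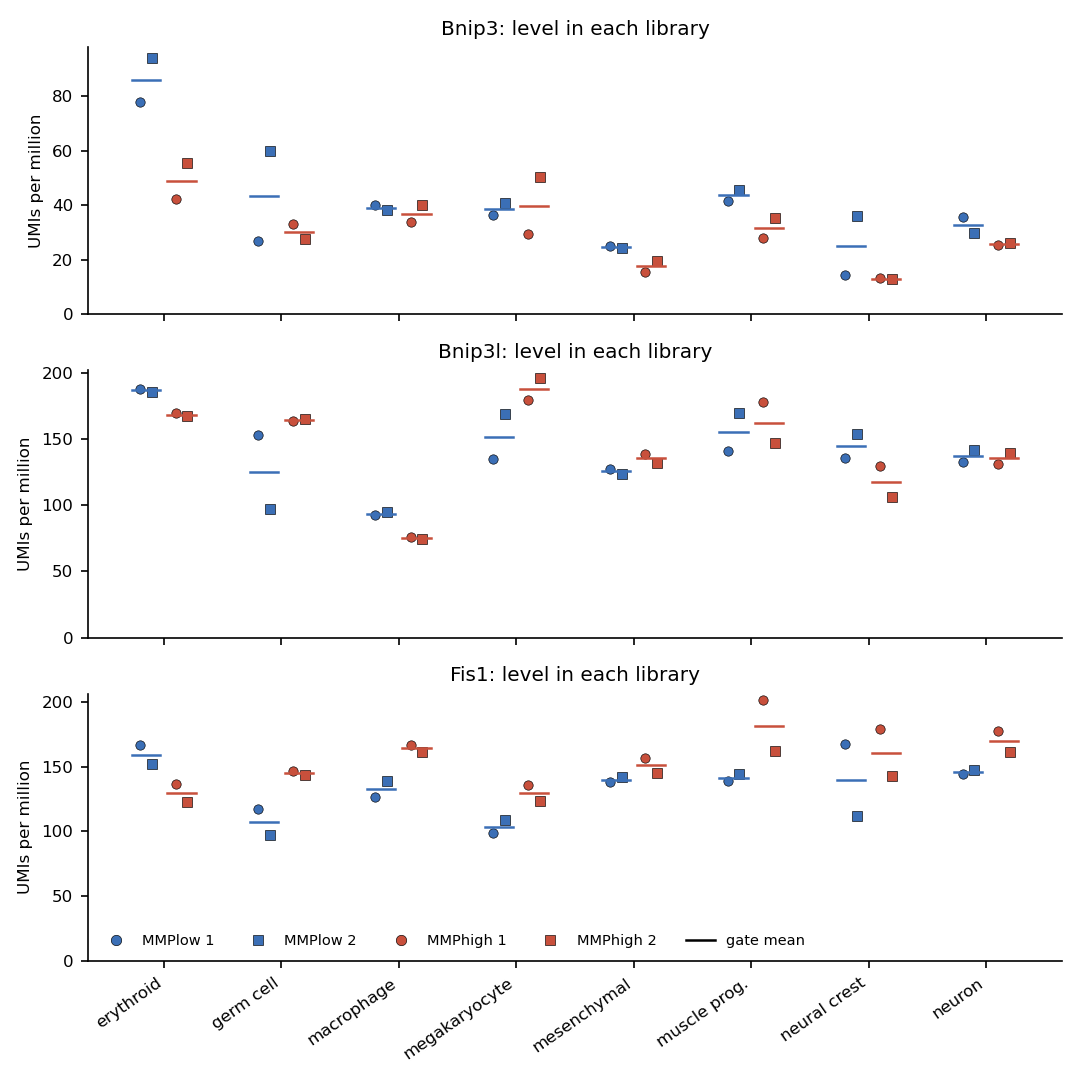
CPM of Bnip3, Bnip3l and Fis1 by library in the 8 classes, with gate means as lines. In erythroid-like cells all 3 genes lie lower in MMPhigh, most clearly Bnip3 (42.4 and 55.5 CPM against 77.9 and 94.1 CPM), whereas Fis1 lies higher in MMPhigh in macrophage-, megakaryocyte-, mesenchymal-, muscle progenitor-, germ cell- and neuron-like cells.

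In the 6 remaining classes no member was called apart from Dnm1l in mesenchymal-like cells. The shares of genes called were 10.8% in germ cell-like cells, where 6 members could be tested, 16.3% in megakaryocyte-like, 2.50% in muscle progenitor-like, 2.18% in neural crest derivative-like, where 8 could be tested, and 22.4% in neuron-like cells. In megakaryocyte-like cells 4 members came near the threshold, all higher in MMPhigh: Fis1 (0.44, edgeR adjusted p = 0.0587), Fundc1 (0.72, edgeR adjusted p = 0.0644), Bnip3l (0.43, edgeR adjusted p = 0.0810) and Mff (0.43, edgeR adjusted p = 0.0872). All 4 were called higher with cells under 10% mitochondrial UMIs, with no doublets removed and with the replicate number as a block. Fis1, Bnip3l and Mff were also called without MMPlow 2, and Fundc1 without MMPhigh 1 and with no gene filter. With library totals none of the 4 was called, and Dnm1l was called lower (-0.51, edgeR adjusted p = 0.031). The share of all genes called in megakaryocyte-like cells was not taken at these alternative settings. The median mitochondrial share of these cells was 6.23% and 5.92% in MMPlow against 2.80% and 3.55% in MMPhigh, and their median depth was 2916, 3792 and 3675 UMIs in MMPlow 1, MMPlow 2 and MMPhigh 1 against 38155 UMIs in MMPhigh 2. The part of either in these differences was not tested.

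Unnamed clusters with 20 cells in every library were fitted in the same way, after the class results had been seen. In cluster 12, led by Gm42418 and Igf2, Dnm1l was lower in MMPhigh (94.6 and 75.9 CPM against 37.0 and 45.0 CPM, log2 difference -0.95, SE 0.250) and Fis1 was higher (0.56), beside 30.1% of genes called. The MMPhigh values of Dnm1l rested on 33 and 16 UMIs, and MMPhigh 2 held 52 cells of this cluster. Its cells had medians of 2405 UMIs and 1.97% mitochondrial UMIs. In cluster 13, led by Gm15915, Ermap and Slc25a21, Fis1 (0.45, SE 0.157) and Fundc1 (0.58, SE 0.201) were higher, beside 29.0%. The 10 leading genes of cluster 13 also held Klf1, a transcription factor of red-cell development, and Cpox, an enzyme of haem synthesis, but the cluster was left unnamed by the naming rule. Bnip3 overlapped there, at 59.7 and 61.6 CPM in MMPlow and 45.1 and 61.2 CPM in MMPhigh (log2 difference 0.15, SE 0.168). No member was called in cluster 16, led by Nxph1 and Lrrc4c (0.344% of genes called), cluster 22, led by Unc5c and Wt1 (10.8%), or cluster 23, led by Hbb-bs and Aif1 (2.96%), which supplied 1460 of the 4403 cells of MMPhigh 1.

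Other genes of the same processes were read from lists. Of 35 further fusion, fission and cristae genes tested in all cells, 13 were called higher and 4 lower in MMPhigh, 48.6% against 53.9% of all genes. With equal cells per class 3 of 34 were higher and 2 lower, 14.7% of the list, beside 19.7% of all genes. Gdap1, a fission factor of neurons, stood at 1.35 and 1.52 CPM in MMPlow and 9.04 and 10.4 CPM in MMPhigh (log2 difference 2.79, SE 0.160), beside neuron markers whose summed level was 441 and 417 CPM in MMPlow and 2587 and 3184 CPM in MMPhigh. It was not among the genes called with equal cells. Inf2, a formin that acts in Dnm1l-driven fission, was lower both in all cells (15.1 and 12.9 CPM against 4.64 and 5.16 CPM, log2 difference -1.47, SE 0.129) and with equal cells (-0.82, SE 0.202). Mtfr1l was higher in both (0.67, SE 0.0931, and 0.39, SE 0.106), as was the outer-membrane import protein Mtx2 with equal cells (0.46, SE 0.112), whereas the protease Spg7 was lower with equal cells (-0.43, SE 0.101).

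Of 25 other mitophagy receptors and regulators, 6 were called higher and 5 lower in all cells (44.0%), and 3 higher and 1 lower with equal cells (16.0%, beside 19.7% of all genes). Nipsnap1 was higher in all cells (0.77, SE 0.0888). Calcoco2 had the largest difference (2.27, SE 0.476) at under 1 CPM in every library. With equal cells the autophagy adaptor Sqstm1 (0.54, SE 0.0986) and the mitochondrial receptor Fkbp8 (0.36, SE 0.102) were higher and the adaptor Tax1bp1 was lower (-0.29, SE 0.0899).

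Of 34 core autophagy genes, 8 were higher and 3 lower in all cells, and 4 were higher and none lower with equal cells. These were 32.4% and 11.8% of the list, beside 53.9% and 19.7% of all genes. Gabarap, an LC3-family protein to which mitophagy receptors bind, was higher in both: it stood at 162 and 191 CPM in MMPlow and 316 and 310 CPM in MMPhigh (log2 difference 0.86, SE 0.113), and the equal-cell difference was 0.63 (SE 0.0975). Atg101 (0.36, SE 0.108) and Atg10 (0.35, SE 0.106) were the other named genes with equal cells. Uvrag (-0.76, SE 0.0851) and Wipi1 (-0.42, SE 0.0939) were called lower in all cells and not called with equal cells.

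Of 8 genes of mitochondrial transport, 3 were higher and 3 lower in all cells (75%, beside 53.9% of all genes), and 25% of the list was called with equal cells (beside 19.7%). The motor adaptor Trak1 was higher (0.40, SE 0.0974) and Armcx3 lower (-0.34, SE 0.102) with equal cells. The all-cell fit also named Sybu (0.88, SE 0.299), Trak2 (-0.54, SE 0.0838) and Armcx3 (-0.61, SE 0.0872). Of 14 genes of mitochondrial biogenesis, 5 were higher and 4 lower in all cells (64.3%), led by the coactivator Ppargc1a (0.79, SE 0.185), the polymerase Polg (-0.62, SE 0.101) and Ppargc1b (-0.45, SE 0.136). With equal cells the helicase Twnk was the 1 gene called (-0.72, SE 0.127), 7.14% of the list. Of 23 hypoxia-response genes, 3 were higher and 9 lower in all cells (52.2%, near the 53.9% of all genes), and 8.70% of the list was called with equal cells. Slc2a1 stood at 99.7 and 99.5 CPM in MMPlow and 29.0 and 29.8 CPM in MMPhigh (log2 difference -1.73, SE 0.0808), and Adm (-2.62, SE 0.269) and Ndrg1 (-1.86, SE 0.164) were also lower. With equal cells Slc2a1 was lower (-0.82, SE 0.106) and Mxi1 higher (0.51, SE 0.0950), and the other 21 were not called.

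Genes whose level was most like that of each member were found by Pearson correlation of log2(CPM + 10) over the 32 sums of class and library, among the 4137 or 4138 other genes with a mean of at least 50 CPM. The sums share libraries and depth, so the values are descriptions. The closest to Mfn1 were Map2k4, Dld and Phactr4 (r = 0.78, 0.71 and 0.70), to Mfn2 Gapvd1, Bod1l and Hectd4 (0.72, 0.70 and 0.66), and to Opa1 Stt3b, Tmem208 and Tlk1 (0.83, 0.81 and 0.81). The closest to Dnm1l were Zfp207, Gng11 and Slc30a9 (0.85, 0.79 and 0.76), to Fis1 Trappc1, H3f3a and Cox7a2l (0.72, 0.68 and 0.67), and to Mff BC031181 and Stk16 (0.80 and 0.80). The closest to Pink1 were Ppp1r10, Anapc4 and Csnk1d (0.81, 0.80 and 0.80). Bnip3 was most like Tfrc, Car2 and Psmb10 (0.76, 0.76 and 0.75), of which the transferrin receptor Tfrc and carbonic anhydrase Car2 are abundant in red-cell precursors. Bnip3l was most like Bex4, Zcrb1 and Hmgb3 (0.83, 0.80 and 0.74), and Fundc1 was most like Blmh, Gng10 and Kdm2b (0.82, 0.82 and 0.78).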

How the data were processed

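The authors deposited raw UMI counts, 1 matrix of genes by barcodes for each library. The matrices came from Cell Ranger 7.0.1 per the file headers, whereas the submitters' processing notes name Cell Ranger 2.1.1 and mm10. Whether intronic reads were counted is not given in the sources used here. Barcodes with at least 2000 UMIs, at least 1000 genes and under 25% mitochondrial UMIs were kept, less the doublets called by Scrublet in scanpy 1.11.5, which called 0 in MMPhigh 1, so doublets remain there. Cells were clustered on 2000 variable genes (log-normalised and z-scaled, 30 components, 15 neighbours, Leiden resolution 1), leaving out the members, the other listed genes, and mitochondrial, respiratory-chain and ribosomal genes. Scaling and naming thresholds were set after earlier clusterings had been seen, without reference to the members' values. Names rest on 14 marker lists. UMIs were summed per library and class, and sums were tested with edgeR 4.0.16 in R 4.3.3 (TMM, filterByExpr, robust quasi-likelihood F-test). The procedure was tried on simulated counts with the same dispersion for every gene and, planted changes aside, the same expected make-up in every library. Such counts do not measure its error or power for the differences reported here. SE is the absolute log2 difference over the square root of F. DESeq2 1.42.0, other gene and cell filters, left-out libraries, thinning, other resolutions and a replicate block were alternatives. The members and lists were chosen with earlier results of these data known. Named genes are all members, per list the 3 called genes with the largest difference in the all-cell and in the equal-cell fit, and the 3 genes most like each member. Egln3, P4ha1 and the leading genes of clusters fall outside this rule. Of the genes this rule names, 2 are not reported here. Protein sequences were not used here.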

Additional observations from a re-analysis of the deposited data

Results flagged for a closer look

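The gate differences of 3 members varied between cell classes by a direct test, edgeR's quasi-likelihood test of class by gate over 8 classes: Fis1 (adjusted p = 0.0011), Bnip3 (adjusted p = 0.0014) and Bnip3l (adjusted p = 0.0120). These 3 of 10 members stand beside 35.6% of all genes called in the same test, so the count is near the background. Over 13 alternative settings the call was kept in 8 for Fis1, 9 for Bnip3 and 7 for Bnip3l. The erythroid-like cells were the only class of the 8 in which the log2 difference of Fis1 was below 0. Among the 7 classes in which Bnip3 could be tested on its own, its log2 difference was also lowest there. Neural crest derivative-like cells, where Bnip3 lay lower in MMPhigh without overlap, were not among the 7.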

How the results depend on the processing

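Members called in all cells numbered 2, and 1 with DESeq2, with library totals in place of TMM and with cells of 1000 UMIs, and from 1 to 4 when 1 library was left out. With equal cells per class they numbered 2, and 1 with DESeq2, with library totals and with thinned cells, and from 0 to 3 when 1 library was left out (0 without MMPlow 1 or MMPlow 2). Calls within classes numbered 5, and 3 with DESeq2, 8 with no gene filter, 2 with cells of 5000 UMIs (6 classes), 9 under 10% mitochondrial UMIs (7 classes), 9 with no doublets removed, 3 with thinned cells, 9 with library totals (2 higher and 7 lower, against 2 and 3), and 3 to 7 when 1 library was left out. Members whose difference depended on class numbered 3, and 0 with cells of 5000 UMIs, with thinned cells and at resolution 0.5, and 1 to 3 when 1 library was left out. With the replicate number as a block, 2 members were called in all cells, 2 with equal cells and 10 pairs within classes, among them Fis1, Mff, Bnip3l and Fundc1, all higher, in megakaryocyte-like cells. For most of these settings the share of all genes called was not taken. The counts therefore do not show whether the members moved apart from other genes. Deviations of same-numbered libraries correlated at 0.119 over 20418 genes, and the labels give only a number. Library totals, single-cluster fits, leaving out unnamed clusters or the cluster led by Hbb-bs, and thinned equal cells were chosen after seeing the data.

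Signs turned as follows (log2 differences). In all cells, Pink1 was -0.0021 with DESeq2, -0.0045 with no gene filter, -0.030 without MMPlow 1, -0.025 with library totals, -0.093 with cells of 1000 UMIs, -0.11 with cells of 5000 UMIs, -0.020 without the highest 6% of doublet scores and -0.0089 without unnamed clusters. Bnip3l was -0.019 without MMPlow 1, -0.025 with cells of 1000 UMIs and -0.30 with cells of 5000 UMIs, the last called lower (edgeR adjusted p = 0.0124). Mfn2 was -0.038 without MMPlow 2 and -0.011 without MMPhigh 2. Bnip3 was -0.039 with cells of 1000 UMIs and -0.20 with cells of 5000 UMIs, where Fis1 was -0.12. With equal cells, Bnip3l was 0.032 with no gene filter, 0.048 without MMPlow 2, 0.017 without MMPhigh 1 and 0.22 with thinned cells, where Opa1 was 0.056. Dnm1l in germ cell-like cells was 0.10 with no gene filter, 0.12 without MMPlow 2 and 0.084 without MMPhigh 1. With 1 library left out, these differences ran from -0.038 to 0.13 for Mfn2 and from -0.030 to 0.033 for Pink1 in all cells, from -0.051 to 0.048 for Bnip3l with equal cells, and from -0.51 to 0.12 for Dnm1l in germ cell-like cells. The causes were not tested. Germ cell-like and neural crest derivative-like cells, with 30 and 24 cells in their smallest library, limit what could be detected there.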
